A study of Mus musculus with 16 samples.

Results

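Liver RNA of mice given either of 2 drugs on high-fat feed was compared with liver RNA of mice on high-fat feed alone. All libraries were made from liver of C57BL/6J mice, an inbred strain, labelled postnatal day 21, without saying whether that is the age at collection or at the start of feeding. The drug group pooled 4 libraries from mice given resveratrol at 100 mg/kg per day and 4 from mice given metformin at 200 mg/kg per day, both by gavage. The comparison group was the 4 libraries labelled high-fat feed, whose titles begin with H7. These are 12 of the 16 libraries of the series, and the other 4, on ordinary feed, entered the fit and are shown for reference. The groups were formed by label alone. The labels name no vehicle gavage in the mice without a drug, so a drug and its gavage cannot be told apart. They also name no cage, litter, batch or sex, and do not say that each library is a separate mouse, so the p-values measure only the spread between these libraries. The 4 high-fat titles share 1 prefix, 2 resveratrol titles share RH1 and 2 metformin titles share MH8, and the labels do not explain these. If a prefix stands for shared housing or family, that and the absence of a drug cannot be told apart in the 4 high-fat libraries.

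Resveratrol, a polyphenol found in grapes, and metformin, a biguanide given for diabetes, both act on the liver, where metformin reduces glucose output. Each has been linked to AMP-activated protein kinase (AMPK), an energy sensor that restrains fatty acid synthesis and favours fatty acid oxidation. High-fat feeding loads the liver with lipid and alters the genes of lipid handling, growth factor signalling and amino acid use. The deposited files list long non-coding transcripts, many of which lie inside introns or untranslated regions (UTRs) of coding genes. A gene symbol given below therefore names where a transcript lies, not the level of that coding gene, and strand was not used, so reads from the listed transcript and from pre-mRNA or mRNA at that place cannot be told apart.

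Values are FPKM (fragments per kilobase of transcript, scaled to library depth), and 7413 of 49988 features reached an FPKM of 1 in 4 or more of the 16 libraries and were tested. Library totals ran from 17.2 to 31.1 M reads, so 1 read on a transcript of 1 kb was worth 0.0321 to 0.0580 FPKM. High-fat library 4, titled H7-5L, stood apart. Its median ratio to the other libraries was 0.691, and its correlations with the other high-fat libraries were 0.776 to 0.822, against 0.851 to 0.894 in the 21 other within-group pairs. Of its listed reads, 22.6% lay on the ribosomal RNA locus, the highest share of any library. The main counts of either drug against high fat are therefore given with and without it. Of 6 library measures, none differed between the 8 drug and 4 high-fat libraries (two-sided exact permutation tests, smallest possible p 0.00202, lowest p 0.0505 for the listed share of reads, adjusted p at least 0.223).

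Changes common to the pooled drugs were few. With limma on log2(FPKM + 1) and Benjamini-Hochberg adjustment over 7413 features, 16 (0.216%) were called at an adjusted p under 0.05, 7 higher and 9 lower with a drug. Without H7-5L, 7 (0.0944%) were called, 3 higher and 4 lower, and 6 of them were among the 16. At an unadjusted p under 0.05 there were 970 features (13.1%), 754 higher and 216 lower, and without H7-5L 636, 356 higher and 280 lower. The median log2 change of all features was 0.10, and 0.03 without H7-5L. When each library was first scaled by its median ratio, 52 features were called, 12 higher and 40 lower, so the share of higher calls was 23.1% in place of 43.8%, and all 16 were among them. All 8 drug values lay beyond all 4 high-fat values for 86 features (1.16%), 69 higher and 17 lower. Without H7-5L these were 94 higher and 72 lower. With all libraries, 14 of the 16 called features were among the 86. The 16 were called on the same values, so this is a description and not separate support. Of the 9 features called lower, 6 had fewer than 4 libraries at 1 FPKM outside the high-fat group, so they entered the test only through the group where they were high. The 6 were at Nrep, Wnk1 and Aacs and upstream of Nudt7. All 16 carried NONCODE identifiers, and 7 lay in introns, 4 between genes, 3 spanned part of a gene with unlisted inner exons, and 2 lay in exons. Of the 16 adjusted p-values, 7 were between 0.04 and 0.05, and 36 further features lay between 0.05 and 0.10.

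The largest change was at Mis12, which encodes a subunit of the kinetochore complex that joins chromosomes to the spindle. NONMMUT010559.2 lies in its 3′ UTR (GRCm38, chromosome 11, 71025492 to 71027369). FPKM was 0.211, 0.137, 0.163 and 0.121 in the high-fat libraries. With resveratrol it was 4.86, 6.20, 8.90 and 6.58, and with metformin 8.40, 5.23, 2.45 and 7.02. Every drug library lay far above every high-fat library. Ordinary feed lay at 4.57 to 7.59. Resveratrol library 3 and metformin library 1 were above that range, metformin library 3 was below it, and the other drug libraries were within it. The mean was 6.20 ± 2.06 (SD, n = 8) with a drug and 0.158 ± 0.0395 (SD, n = 4) on high fat. The log2 change was 2.58 (SE 0.22, limma adjusted p = 2.84e-05), and 2.56 without H7-5L (adjusted p = 0.000413).

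Igfbp2 encodes a secreted protein that binds insulin-like growth factors and is made in large part by the liver. NONMMUT001470.2 lies in its intron (chromosome 1, 72832881 to 72834402). FPKM was 2.00, 3.93, 1.15 and 1.29 on high fat. It was 36.9, 16.6, 9.09 and 15.8 with resveratrol, and 12.3, 7.16, 16.6 and 9.28 with metformin. The groups did not overlap, and resveratrol library 1 was the highest of the 16. This was a log2 change of 2.34 (SE 0.34, limma adjusted p = 0.0103), and 2.22 without H7-5L (adjusted p = 0.0411). Without high-fat library 3 it did not pass (adjusted p = 0.0593). Mean FPKM was 15.5 ± 9.41 (SD, n = 8) with a drug and 15.5 ± 3.79 (SD, n = 4) on ordinary feed.

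**Figure D1:**
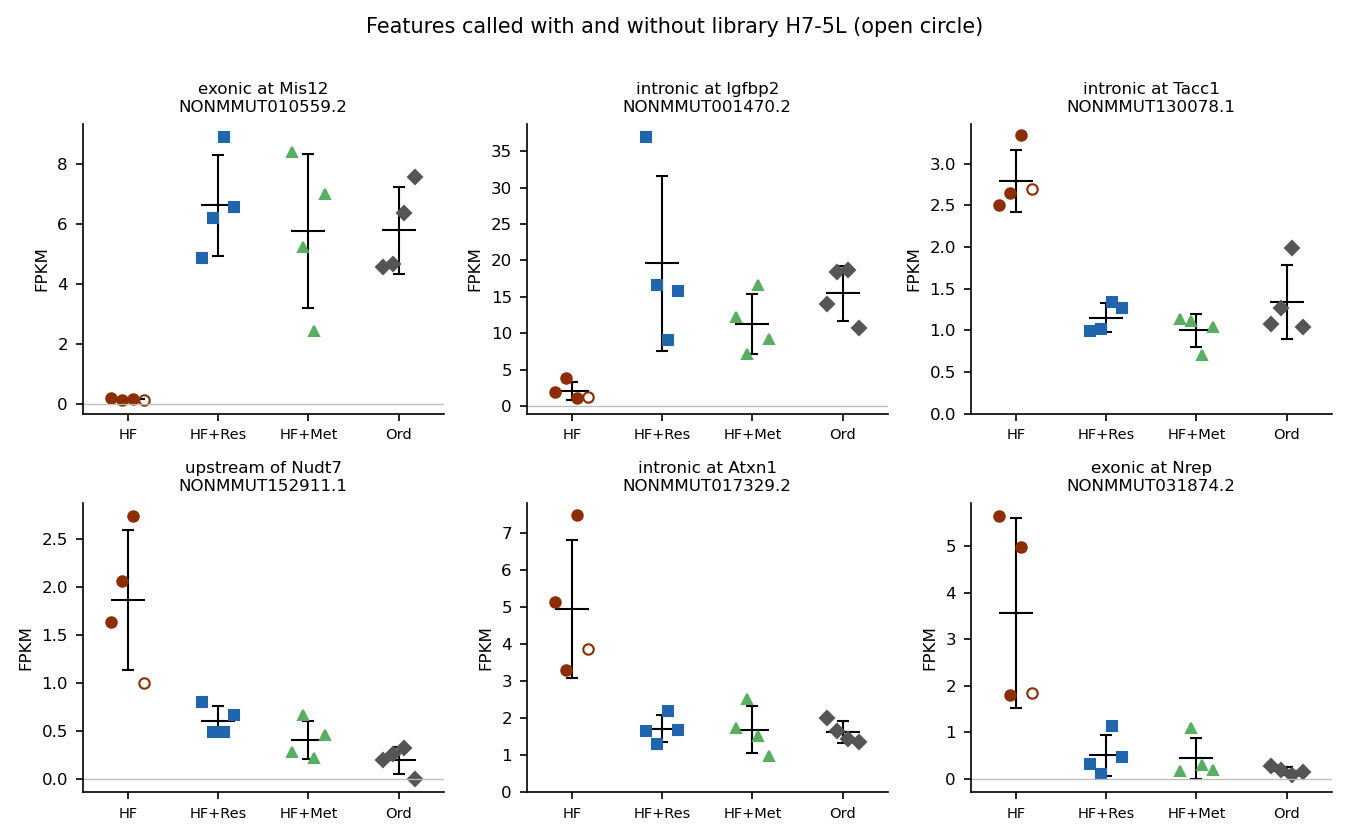
FPKM (linear axis from 0) per library for the 6 features called both with all libraries and without H7-5L, by group (HF, high fat; HF+Res, with resveratrol; HF+Met, with metformin; Ord, ordinary feed); points are libraries, the open circle is H7-5L, and bars are the mean ± SD of 4. In every panel the 8 drug libraries lie on 1 side of the 4 high-fat libraries.

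The promoter of Igfbp2 is shown because its transcript had the largest rise after Mis12. It is the first of 2 promoters listed for the gene in RefSeq (GRCm38.p6, 250 bases before the start, chr1:72824230-72824479, plus strand). Capitals mark GC boxes (GGGCGG, 3 matches) and an E-box (CACGTG, 1 match), searched on both strands.

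Igfbp2 promoter: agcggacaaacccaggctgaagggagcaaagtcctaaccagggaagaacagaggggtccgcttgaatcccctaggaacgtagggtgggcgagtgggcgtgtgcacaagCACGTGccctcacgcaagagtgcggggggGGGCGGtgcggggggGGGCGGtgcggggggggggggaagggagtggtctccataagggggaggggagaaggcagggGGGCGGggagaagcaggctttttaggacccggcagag

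Over 32851 promoters of this length, 32.7% held a GC box and 6.0% this E-box.

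Among the features that fell, Tacc1 had the smallest adjusted p. Tacc1 encodes a coiled-coil protein of the centrosome and microtubules, and NONMMUT130078.1 lies in its intron (chromosome 8, 25224918 to 25225781). FPKM was 2.50, 2.64, 3.34 and 2.69 on high fat. With a drug it ran from 0.703 to 1.33 with a median of 1.08, and on ordinary feed from 1.03 to 1.98. No drug library reached the lowest high-fat library. The log2 change was -0.87 (SE 0.11, limma adjusted p = 0.00206), and -0.88 without H7-5L (adjusted p = 0.00786).

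The neighbouring transcripts of Tacc1 lay on the same side. All 16 tested features of the gene were below 0, from -0.87 to -0.32 with a median of -0.56, against a median of 0.10 over all features. Only NONMMUT130078.1 passed with all libraries, 14 had an unadjusted p under 0.05, and 5 did not overlap between the groups, against 0.216%, 13.1% and 1.16% of all features. Without H7-5L the median of the 16 was -0.48. These features lie in 1 gene and share its libraries, so they are not independent replicates.

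Atxn1, which encodes ataxin-1, a regulator of transcription, held 2 called intronic features. For NONMMUT017329.2 (chromosome 13, 45939169 to 45941038) FPKM was 5.14, 3.30, 7.49 and 3.88 on high fat, and 0.986 to 2.52 with a median of 1.67 with a drug. The groups did not overlap, and ordinary feed lay at 1.36 to 2.02. It fell by 1.11 on the log2 scale (SE 0.17, limma adjusted p = 0.0119), and by 1.19 without H7-5L (adjusted p = 0.0223). It did not pass without high-fat library 3 (adjusted p = 0.0593) or with only the 12 high-fat-fed libraries (adjusted p = 0.0510). NONMMUT017327.2, another intronic transcript, fell by 0.83 (SE 0.16, adjusted p = 0.0498), but high-fat library 1, at 1.48, lay within the drug range of 0.831 to 1.88, and it did not pass without H7-5L (adjusted p = 0.144). Of the 10 tested features of the gene 7 were below 0, with a median of -0.44 (-0.27 without H7-5L). The 2 that lie in its exons had log2 changes of 0.03 and 0.10 (adjusted p = 0.935 and 0.764).

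**Figure D2:**
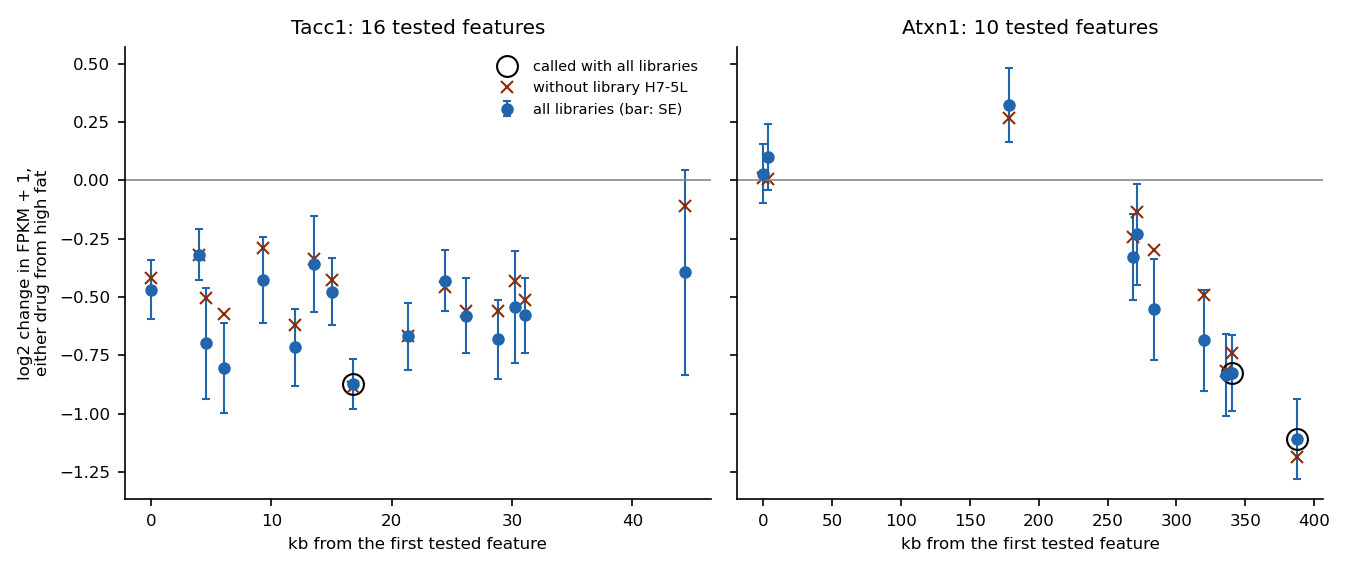
Log2 change in FPKM + 1 of either drug from high fat for each tested feature of Tacc1 (16) and Atxn1 (10), by distance along the genome from the first tested feature in kb; dots with SE bars use all libraries, crosses leave out H7-5L, rings mark called features. All Tacc1 dots lie below 0, and at Atxn1 the 2 called features lie at the right end.

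Nrep and an intergenic transcript also fell with and without H7-5L. Nrep encodes a small protein first described in regenerating nerve, and NONMMUT031874.2 lies in its exons (chromosome 18, 33461141 to 33463623). FPKM was 5.65, 1.80, 4.99 and 1.83 on high fat, 0.101 to 1.12 with a median of 0.301 with a drug, and 0.0767 to 0.280 on ordinary feed. The groups did not overlap. Outside the high-fat group it reached 1 FPKM only in resveratrol library 3 and metformin library 2, so it entered the test only through the group where it was high. On the log2 scale the change was -1.57 (SE 0.25, limma adjusted p = 0.0119), and -1.76 without H7-5L (adjusted p = 0.0121). It did not pass without high-fat library 3 (adjusted p = 0.0978) or with only the 12 high-fat-fed libraries (adjusted p = 0.0511). NONMMUT152911.1 lies 43.8 kb upstream of Nudt7, which encodes a peroxisomal enzyme that hydrolyses coenzyme A (chromosome 8, 114089186 to 114089777). FPKM was 1.64, 2.06, 2.73 and 1.00 on high fat, and 0.22 to 0.798 with a median of 0.490 with a drug. It reached 1 FPKM in the 4 high-fat libraries and in no other, so the filter itself fixed that the groups do not overlap. It fell by 0.90 (SE 0.15, adjusted p = 0.0234), and by 1.06 without H7-5L (adjusted p = 0.00786). It did not pass without high-fat library 2 (adjusted p = 0.0879), high-fat library 3 (0.148) or resveratrol library 2 (0.0545). In all it lost the call in 5 of 22 alternative settings, 1 of them the fit with only the 12 high-fat-fed libraries.

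Tested transcripts at Aacs were lower with a drug, but all 4 reached 1 FPKM in fewer than 4 libraries outside the high-fat group. They entered the test only through the group where they were high, so their shared direction is not separate support. Aacs encodes acetoacetyl-CoA synthetase, which feeds ketone bodies into the making of lipid in the cytosol. NONMMUT119418.1 spans part of the gene (chromosome 5, 125496681 to 125508255), with FPKM of 4.43, 1.64, 2.98 and 2.09 on high fat. With a drug it ran from 0.0804 to 1.34 with a median of 0.371, and the groups did not overlap. It fell by 1.34 (SE 0.22, limma adjusted p = 0.0212). NONMMUT149179.1 and NONMMUT149180.1, which lie 4.06 and 5.23 kb downstream, fell by 1.27 (adjusted p = 0.0371) and 1.00 (adjusted p = 0.0498). Neither passed when no filter was used (adjusted p = 0.0720 each), and NONMMUT149180.1 reached 1 FPKM in the 4 high-fat libraries alone. NONMMUT119417.1, nearer the start of the gene, had a log2 change of -1.28 and did not pass (adjusted p = 0.0702). Resveratrol library 4 was the highest drug library at all 4 features, at 2.24 FPKM against 0.0970 to 0.214 in the other resveratrol libraries for NONMMUT149179.1. Without H7-5L the 3 called features had log2 changes of -1.42, -1.35 and -1.08 and none passed (adjusted p = 0.0513, 0.0739 and 0.0763).

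The Aacs promoter is printed because 4 neighbouring transcripts are described above (RefSeq, GRCm38.p6, chr5:125475623-125475872, plus strand). Neither the GC box and E-box above, nor the CCAAT box (CCAAT) or the sterol element (TCACNCCAC), was found on either strand in these letters, so there are no capitals.

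Aacs promoter: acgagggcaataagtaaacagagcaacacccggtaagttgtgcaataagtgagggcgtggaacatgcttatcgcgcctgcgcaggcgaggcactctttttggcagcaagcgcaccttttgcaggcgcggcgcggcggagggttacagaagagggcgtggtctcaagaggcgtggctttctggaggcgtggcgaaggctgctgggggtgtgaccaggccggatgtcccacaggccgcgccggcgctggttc

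Over the same promoters, 33.8% held a CCAAT box and 1.1% the sterol element.

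Features at Acnat1, Gldc and Cadm1 also rose, and none of these 3 passed without H7-5L. NONMMUT047231.2 lies 4.47 kb upstream of Acnat1, which encodes a peroxisomal enzyme that joins fatty acids to amino acids (chromosome 4, 49478386 to 49481012). FPKM was 3.02, 2.89, 2.25 and 1.49 on high fat, 10.8, 11.1, 6.97 and 4.80 with resveratrol, and 6.47, 4.92, 4.51 and 6.30 with metformin. Both drug groups lay above high fat and mostly below the 10.6 to 14.6 of ordinary feed. The log2 change was 1.19 (SE 0.22, limma adjusted p = 0.0421), and 1.05 without H7-5L (adjusted p = 0.12). NONMMUT047232.2, which overlaps it, had a log2 change of 0.74 (adjusted p = 0.0839), and NONMMUT047227.2, partly in Acnat1 exons, 0.30 (adjusted p = 0.405).

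Gldc encodes glycine decarboxylase of the mitochondrial glycine cleavage system. Its intronic NONMMUT034407.2 (chromosome 19, 30164751 to 30165769) was at 0.649, 0.568, 0.343 and 0.626 FPKM on high fat. It was at 1.90, 1.51, 1.23 and 1.54 with resveratrol, and at 1.63, 1.06, 1.02 and 0.838 with metformin. The groups did not overlap, and ordinary feed was higher than both, at 2.91 to 3.55. It rose by 0.59 (SE 0.11, limma adjusted p = 0.0498), and without H7-5L the change was 0.61 (adjusted p = 0.0986).

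Cadm1 encodes a cell adhesion molecule. Its intronic NONMMUT068989.2 was at 0.585, 0.660, 0.609 and 0.393 FPKM on high fat and at 0.834 to 1.30 with a drug, with no overlap. It rose by 0.42 (SE 0.083, limma adjusted p = 0.0498), and the change was 0.37 without H7-5L (adjusted p = 0.131).

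At Wnk1 and Cep68 the called transcript shares its interval with another listed transcript. Wnk1 encodes a kinase that controls salt transporters. Its called NONMMUT058644.2 (chromosome 6, 120033522 to 120036471) was listed at 1.30, 1.18, 1.25 and 1.33 FPKM on high fat and at 0 in all 8 drug libraries and ordinary library 3 (log2 change -1.18, SE 0.18, limma adjusted p = 0.0119). NONMMUT058645.2, which starts at the same base and ends at 120036490, was the mirror image, at 0 in all 4 high-fat libraries and at 0.635 to 1.74 with a drug. In each of the 16 libraries 1 of the pair held all the reads. Summed, the pair had a log2 change of -0.22 (SE 0.13, adjusted p = 0.457). Its summed RPM was 2.63 to 2.96 on high fat and 1.43 to 3.92 with a drug, so the ranges of the pair overlapped where those of NONMMUT058644.2 alone did not.

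Mouse miR-706 lies in the interval of both Wnk1 transcripts (chr6:120034290-120034311, minus strand, RefSeq, GRCm38.p6), and is shown to mark what the shared interval holds. The files do not give the inner exons, and its seed, bases 2 to 8, is in capitals.

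mmu-miR-706: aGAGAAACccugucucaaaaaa

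Cep68 encodes a protein of the linker between centrosomes. Its called NONMMUT140349.1 (chromosome 11, 20226961 to 20240109) was at 0.657, 0.413, 0.434 and 0.308 FPKM on high fat and 0.746 to 1.25 with a drug, with no overlap (log2 change 0.47, SE 0.093, limma adjusted p = 0.0498; 0.131 without H7-5L). NONMMUT140351.1, inside its interval, held 22, 59, 41 and 32 reads on high fat, 46 in resveratrol library 2 and 0 in the other 7 drug libraries. Summed over it and every other listed transcript that overlaps it, depth-scaled reads (RPM) were 2.83 to 3.97 on high fat and 3.59 to 6.76 with a drug. The summed ranges overlapped, whereas those of NONMMUT140349.1 alone, 1.37 to 2.91 and 3.31 to 5.54, did not. Mis12, Igfbp2, Tacc1 and Nrep had no overlapping listed transcript. NONMMUT152911.1 upstream of Nudt7 had 8, and its summed RPM was 1.69 to 3.28 on high fat and 0.390 to 1.585 with a drug. Called transcripts at Acnat1 and Cadm1 and NONMMUT017329.2 at Atxn1 had 1 each, and their summed ranges did not overlap between the groups.

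**Figure D3:**
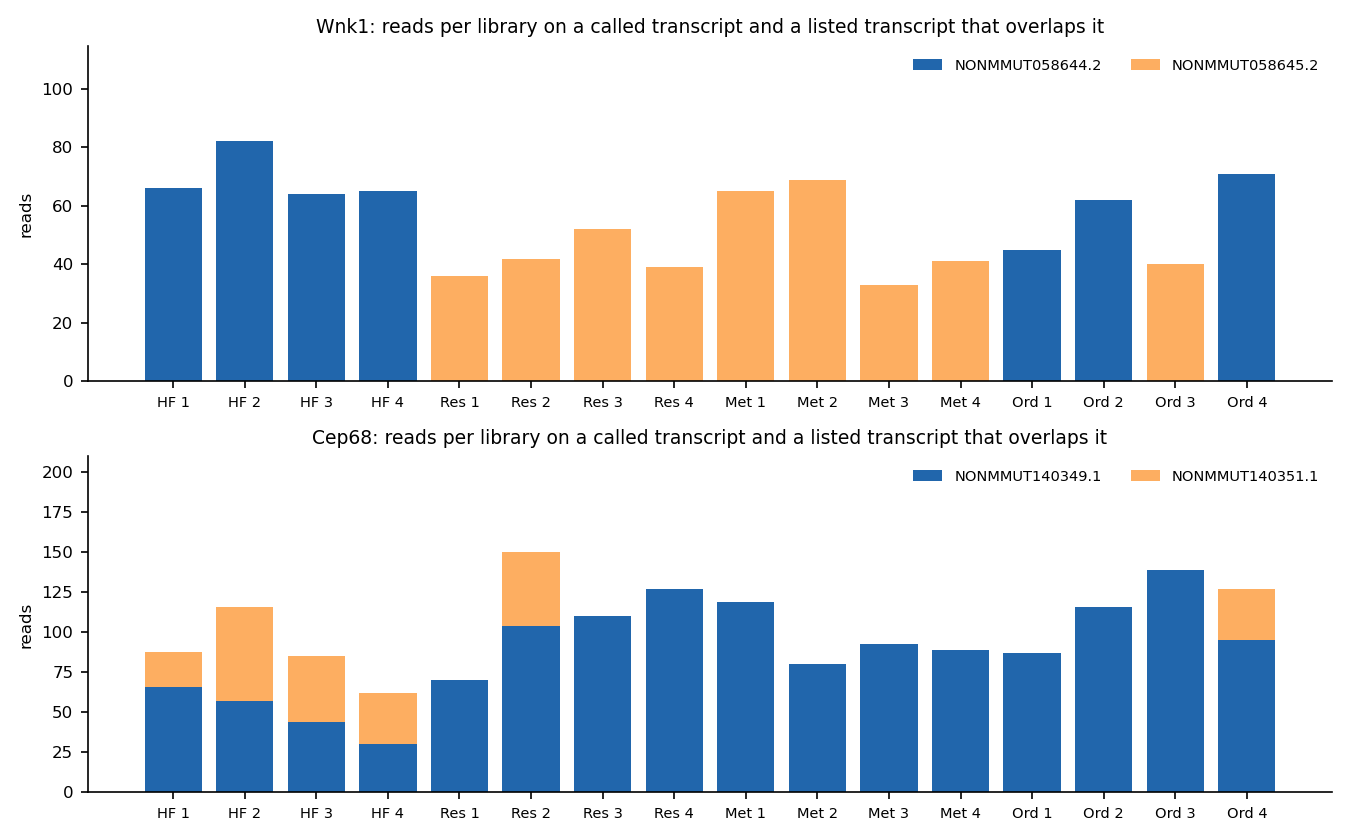
Reads per library (bars from 0) on the called transcripts of Wnk1 and Cep68 and on a listed transcript that overlaps each, stacked, for the 4 high-fat (HF), resveratrol (Res), metformin (Met) and ordinary-feed (Ord) libraries. At Wnk1 all reads are on NONMMUT058644.2 in the high-fat libraries and on NONMMUT058645.2 in the drug libraries.

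At Enho the call came only without H7-5L. Enho encodes adropin, a secreted peptide of energy balance made in the liver, and NONMMUT046854.2 lies in its 3′ UTR (chromosome 4, 41638276 to 41638918). FPKM was 7.75, 9.20 and 4.70 in high-fat libraries 1 to 3 and 48.2 in H7-5L. It was 21.4, 22.4, 24.5 and 10.7 with resveratrol, 24.0, 22.5, 23.9 and 23.9 with metformin, and 5.72 to 10.0 on ordinary feed. All 8 drug libraries lay above the other 3 high-fat libraries and all 4 ordinary ones. The log2 change was 0.81 (SE 0.41, limma adjusted p = 0.406) with H7-5L and 1.47 (SE 0.24, adjusted p = 0.0279) without it.

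**Figure D4:**
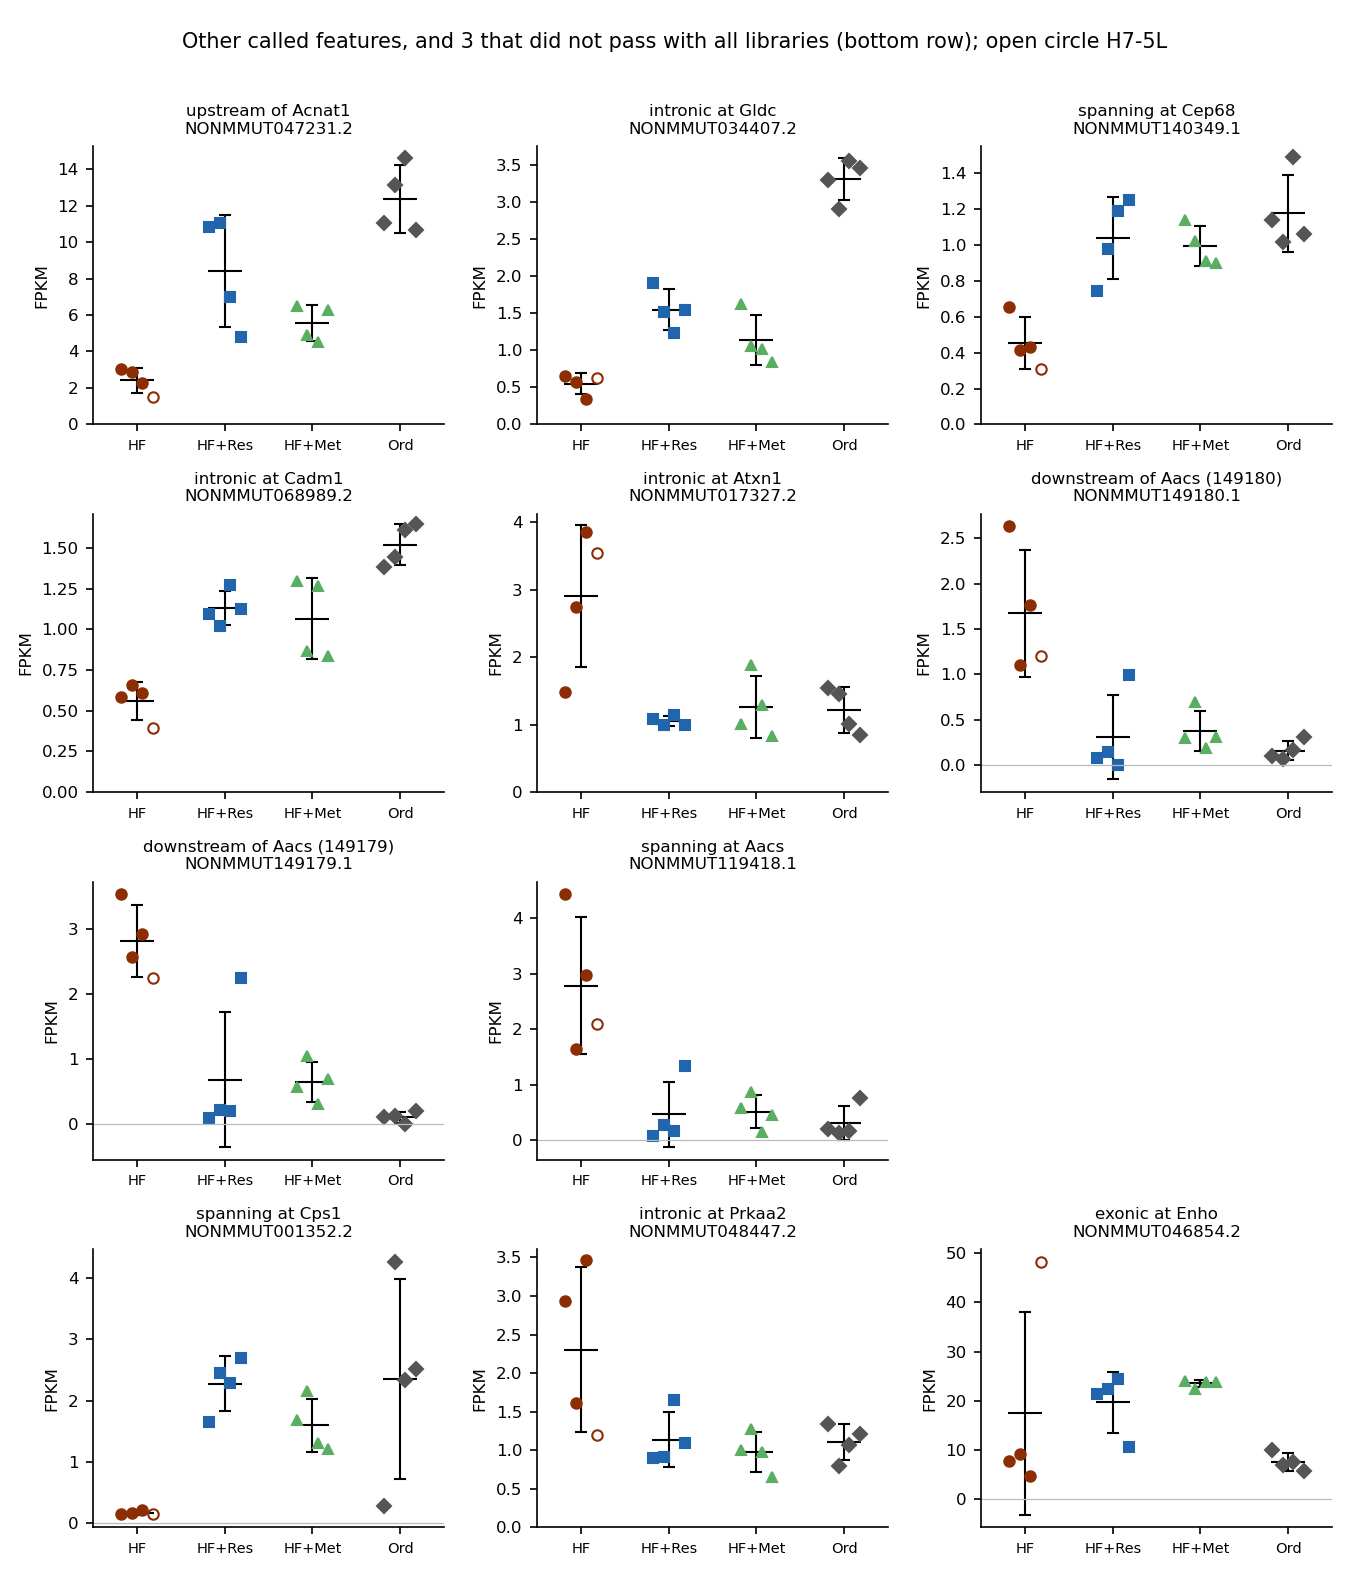
FPKM (linear axis) per library for 8 other called features and, in the bottom row, for transcripts at Cps1, Prkaa2 and Enho that did not pass with all libraries; groups, points and bars as in the plot of the 6 features, open circle H7-5L. At Enho H7-5L is at 48.2 and the other high-fat libraries are below 10.

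The drugs were next compared with each other. Resveratrol minus metformin gave 0 called features (0%) with limma, while 471 had an unadjusted p under 0.05. Over the 16 called features this difference ran from -0.12 to 0.63 on the log2 scale, with 95% intervals between -0.69 and 1.43, so these libraries leave room for differences between the drugs of that size. The widest was Igfbp2, at 0.63 (95% interval -0.16 to 1.43). Gldc, at 0.26 (0.01 to 0.51), was the 1 feature of the 16 with an unadjusted p under 0.05 in limma. In each drug alone all 16 had an unadjusted p under 0.05. Both comparisons share the 4 high-fat libraries, and the 16 were called on these same drug libraries. This is therefore a description and not separate support. Under the stricter demand that both drugs pass at once, 2 features (0.027%) were called, against 287 at an unadjusted p under 0.05. They were Mis12 (2.70 with resveratrol, 2.45 with metformin, limma adjusted p = 0.000762) and Tacc1 NONMMUT130078.1 (-0.82 and -0.93, adjusted p = 0.0396). This count was 1 without any 1 of high-fat libraries 2, 3 and 4, resveratrol libraries 1, 2 and 3 or metformin libraries 2, 3 and 4, and 5 without high-fat library 1.

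**Figure D5:**
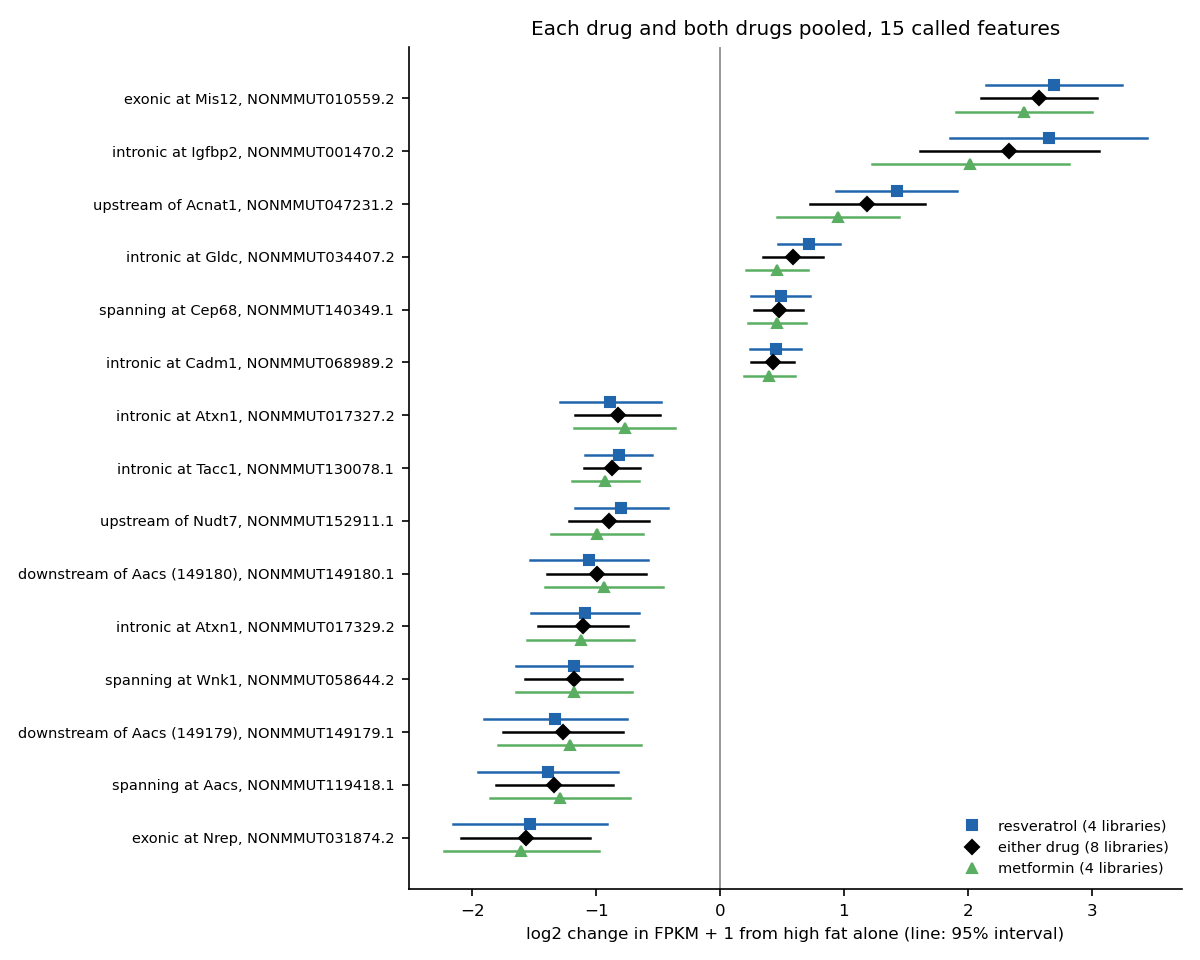
Log2 change in FPKM + 1 from high fat alone (x axis) for 15 of the 16 called features (y axis) with resveratrol (squares), metformin (triangles) and either drug (diamonds); lines are 95% intervals. Both drugs lie on the same side of 0 for all 15, which were called on these same libraries.

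Against ordinary feed, 88 features (1.19%) differed with a drug, 37 higher and 51 lower, while high fat alone differed from ordinary feed for 1055 (14.2%), 210 higher and 845 lower. Both figures count features and were not tested against each other. The median log2 change of all features from ordinary feed was -0.07 with a drug and -0.16 on high fat alone. The count of 1055 is given only with high-fat library 4, whose median ratio was 0.691, and without median-ratio scaling. The part of that library in the 845 lower features was not tested. Of the 16 called features, high fat differed from ordinary feed for 15, all but Wnk1, and the drug group differed from it for 2. The 16 were called on the same 4 high-fat libraries, so the count of 15 is a description and not independent of that choice. At Gldc the drug group was below ordinary feed by a log2 change of -0.89 (limma adjusted p = 0.00292), and at Wnk1 NONMMUT058644.2 by -0.89 (adjusted p = 0.0328). The other 14 did not pass, with 95% intervals of -0.43 to 0.52 at Mis12, -0.85 to 0.59 at Igfbp2 and -1.26 to -0.33 at Acnat1 (adjusted p = 0.0804). Measured from ordinary feed, the Agfg1 transcript had a log2 change of -1.77 with a drug and -1.80 on high fat alone. NONMMUT001706.2 in the 3′ UTR of Agfg1, which encodes a protein of vesicle transport, was at 2.35 to 3.52 FPKM on ordinary feed, 0.0360 to 0.112 on high fat and 0.0648 to 0.140 with a drug. Its change with a drug was 0.03 (SE 0.10, adjusted p = 0.922).

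Of 21 gene lists, 19 had no called member, with 2 to 18 features each and medians from -0.27 to 0.36, where 0.216% of all features were called. A list gene was represented by the transcript of highest mean FPKM in it or within 5 kb. Over every linked transcript 4 lists held a called one, the further 2 being fatty acid synthesis (2 of 14, both at Aacs) and the acyl-CoA thioesterase family (1 of 4, the Acnat1 feature above). Called members were Igfbp2, 1 of 8 in the glycolysis, insulin and glycogen list (median -0.11), and Mis12, the 1 linked gene of the cell cycle list.

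For fatty acid synthesis, 0 of 9 representative features passed, the median was -0.12 (-0.35 without H7-5L) and 3 were above 0. Aacs was represented there by NONMMUT119417.1, at -1.28. Scd1 encodes the desaturase that makes monounsaturated fatty acids. NONMMUT034843.2 in its 3′ UTR was at 1832, 2322, 2256 and 702 FPKM on high fat, 702, 489, 391 and 1515 with resveratrol, and 758, 516, 2663 and 230.5 with metformin. The groups overlapped, and its log2 change of -1.23 (SE 0.53) did not pass (limma adjusted p = 0.341). Transcripts at Fasn, the fatty acid synthase gene, and at Elovl6, a fatty acid elongase gene, had changes of -0.60 (adjusted p = 0.557) and -0.44 (adjusted p = 0.505). Fads2, a desaturase gene, was at -0.12 (adjusted p = 0.834).

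For fatty acid oxidation 0 of 7 passed, and the median turned from 0.07 to -0.14 without H7-5L. The value was -0.12 just downstream of Ppara (adjusted p = 0.773; -0.27 without H7-5L), the gene of the receptor that drives this pathway. Cyp4a10, a gene of fatty acid omega-hydroxylation, was at 0.38 (adjusted p = 0.766). For gluconeogenesis 0 of 5 passed (median 0.09). The values were -0.15 at Fbp1, -0.05 at Gpt, 0.08 at Foxo1 and 0.16 at Pcx (adjusted p from 0.706 to 0.90), and those of Gpt and Foxo1 changed sign without H7-5L (0.04 and -0.09). The fifth and highest, named after its values were seen, was at Pck1, the gene of the enzyme that commits carbon to gluconeogenesis, at 0.61 (SE 0.14, unadjusted p = 0.000483, limma adjusted p = 0.0861), and at 0.63 without H7-5L (adjusted p = 0.174).

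For the AMPK, sirtuin and mTOR list 0 of 9 passed (median -0.04). Foxo3 was at -0.13, Stk11, the gene of an upstream kinase of AMPK, at -0.06, Nampt at -0.04 and Sirt3 at 0.39 (limma adjusted p from 0.468 to 0.949). Without H7-5L Stk11 was at 0.04 and Sirt3 at 0.02. The highest, named after its values were seen, was at Sirt1, the sirtuin gene most tied to resveratrol, at 1.05 (SE 0.49, adjusted p = 0.378; 0.87 without H7-5L). Prkaa2, which encodes a catalytic subunit of AMPK, was singled out after its values were seen. Its intronic NONMMUT048447.2 was at 2.94, 1.61, 3.47 and 1.2 FPKM on high fat and 0.653 to 1.65 with a drug, with overlap. Its log2 change of -0.64 (SE 0.17) did not pass (adjusted p = 0.149), but passed when libraries were scaled by their median ratio, at -0.74 (adjusted p = 0.0259), and at -0.83 without H7-5L as well (adjusted p = 0.0256).

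All 9 linked features of the amino acid and one-carbon list were above 0 (median 0.20, against 0.10 over all features), and none passed. Without H7-5L the list median was 0.29, against 0.03 over all features, and Oat turned from 0.03 to -0.45. The highest was at Cps1, the first enzyme of the urea cycle, just outside the threshold and singled out after its values were seen. NONMMUT001352.2 spans part of the gene and was at 0.140, 0.153, 0.208 and 0.145 FPKM on high fat. It was at 1.65, 2.45, 2.29 and 2.70 with resveratrol, and at 1.69, 2.16, 1.31 and 1.21 with metformin. The groups did not overlap, and ordinary feed held 1 low library (0.276) and 3 at 2.34 to 4.27. Outside the drug group only those 3 libraries reached 1 FPKM. The transcript therefore entered the test only through the group where it was high. The change was 1.31 on the log2 scale (SE 0.26, limma adjusted p = 0.0513; 0.131 without H7-5L).

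Of 61 cell type marker genes only 8 had a linked feature, so the makeup of the tissue could not be checked well. Hepatocyte markers had 4, with a summed FPKM of 22.8 to 40.7 on high fat, 24.4 to 32.2 with resveratrol and 25.6 to 38.2 with metformin, and Cps1 was among them. Macrophage (Kupffer cell), stellate, endothelial and pancreas or gut markers had 1 linked feature each, none called, and 4 other cell types had none. The macrophage feature was at 0.0650 to 0.125 FPKM on high fat, 0.124 to 3.89 with resveratrol and 0.121 to 3.20 with metformin. Fewer cells of a type and less RNA per cell cannot be told apart in bulk liver. The part of cell makeup in the changes above was not tested.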

How the data were processed

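The authors deposited 1 table per library with FPKM for each of 51024 listed transcripts (44554 with NONCODE identifiers, 6326 with Ensembl identifiers, 144 assembled). Bowtie 0.12.2, Cufflinks 2.1.1 and the GRCm38 build are listed, with no roles or order, per the submitters' processing notes. The annotation version, the use of strand and any filter: not given in the sources used here. Per the labels' protocols, total RNA went into an Illumina TruSeq kit.

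The deposited FPKM values were whole multiples of 1 read in at least 99.96% of values (tolerance 0.05 of a read), which gave library totals and reads. Transcripts of an Ensembl gene were summed, and features that reached an FPKM of 1 in 4 or more of 16 libraries were tested. Position was taken against coding genes of GENCODE M21 on the same build. Differences were fitted on log2(FPKM + 1) with limma 3.58.1 in R 4.3.3, a mean-variance trend and 3 group means (ordinary feed, high fat, either drug) over all 16 libraries, with 13 residual degrees of freedom. Fold changes on that scale understate the change of low features. The drugs were compared with each other in a fit with 4 group means. The test of both drugs took the larger p of each. Intervals are 95%. The fit was tested on simulated data first.

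Named features were up to 14 per direction called with and without H7-5L with groups that did not overlap, called list members, up to 4 members that did not pass of 4 lists of the drugs' known targets, up to 6 with the largest difference between the drugs, and the Mis12, Agfg1, Igfbp2 and Acnat1 features. All other called features, with Enho, Cps1, Prkaa2, Pck1 and Sirt1, were chosen after their values were seen. Some features that the rule names or that were called are not reported here. Members, lists and tests were chosen with earlier results of these data known. Alternatives were other pseudocounts, filters, scalings, weights, summing of transcripts, and leaving out each library. The summing of nearly identical transcripts was chosen after seeing the data.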

Additional observations from a re-analysis of the deposited data

Results flagged for a closer look

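In 6 of 107 groups of libraries examined, the lowest or highest library stood further from its nearest neighbour than Dixon's test allows at 95%, where chance gives about 1 in 20. Transcript values were compared on the log2(FPKM + 1) scale, while FPKM is printed here. At Aacs NONMMUT119418.1, ordinary-feed library 4 was at 0.760 FPKM, against 0.133 to 0.197 in the other 3. At Aacs NONMMUT149179.1, resveratrol library 4 was at 2.24, against 0.0970 to 0.214. At Enho NONMMUT046854.2, resveratrol library 4 was at 10.7, against 21.4 to 24.5 in the other 3 and in the other 7 drug libraries, and metformin library 2 was at 22.5, against 23.9 to 24.0. High-fat library 2 held 31.1 M reads, against 21.9 to 22.9 M in the other 3. Causes were not tested.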

How the results depend on the processing

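The 16 calls became 52 with median-ratio scaling, 46 with quantile normalization (14 higher, 32 lower), 70 with array weights (30 and 40), 27 with overlapping transcripts summed (16 and 11) and 6 with only the 12 high-fat-fed libraries (4 and 2). In that last fit only 4 of the 16 stayed called, those at Mis12, Igfbp2, Tacc1 and Wnk1. The other calls depended on the ordinary-feed libraries in the fit. Leaving out 1 library gave 2 to 29, with 2 without high-fat library 3, 6 without resveratrol library 2, 7 without H7-5L, 8 without resveratrol library 1, 9 without metformin library 1, 10 without high-fat library 2, 26 without metformin library 2 and 29 without metformin library 4. The split also moved with a pseudocount of 0.1 (12 higher, 3 lower of 15) and with no filter (2 and 11 of 13), while scaling without H7-5L gave 19 (4 and 15). Features called for both drugs numbered 6 with median-ratio scaling and 1 to 5 with 1 library left out. Resveratrol minus metformin gave 0 to 1 calls with 1 library left out. Calls against ordinary feed ranged from 12 to 107 with 1 library left out (12, 20 and 27 without ordinary-feed libraries 3, 1 and 2, 26 without metformin library 1, 37 without resveratrol library 4), and were 77 higher and 38 lower with median-ratio scaling. The cause was not tested. Of 352 values of the 16 features over 22 alternatives, none reversed and 123 lost the call. Mis12 and Tacc1 NONMMUT130078.1 kept it in all 22, and Igfbp2 in 21. Wnk1 was lost when its nearly identical pair was summed (-0.22). Most called features rested on few reads (at most 82 in a library at Wnk1, 59 at Aacs NONMMUT119418.1). No paired analysis was possible because the labels give no replicate numbers.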

Other observations

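Several features lay just outside the threshold and shared an adjusted p, which the Benjamini-Hochberg step can give to neighbouring ranks. With limma adjusted p = 0.0513 each, NONMMUT134394.1 at Ptpn9, a phosphatase gene, had a log2 change of 0.60 (SE 0.12), NONMMUT032212.2 in an intron of Mcc 0.81 (SE 0.16), and NONMMUT121631.1 at Cyp3a25, a cytochrome P450 gene, 1.07 (SE 0.21). Summed with the tested transcript that overlaps it, the Ptpn9 transcript had a log2 change of 0.305 (limma adjusted p = 0.322). At Mcc FPKM was 1.74, 1.95, 1.41 and 1.23 on high fat and 2.33 to 5.32 with a drug, without overlap. At Cyp3a25 it was 0.217 to 1.26 on high fat and 1.61 to 3.13 with a drug, also without overlap. None of them passed without H7-5L (adjusted p = 0.144 each).

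Features at St6gal1, Atxn7l1, Mcm10, Wdr45b and Fdx1 passed with median-ratio scaling, with and without H7-5L, but not on the deposited scale. With all libraries their log2 changes were -0.67, -0.61, -0.59, -0.59 and -0.54 on the deposited scale, and -0.75, -0.70, -0.69, -0.67 and -0.68 after scaling. In each of them H7-5L was the lowest high-fat library, and the groups overlapped. Those at St6gal1, Atxn7l1 and Wdr45b reached 1 FPKM in fewer than 4 libraries outside the high-fat group. They entered the test only through the group where they were high. All 5 tested features at Egfr, the gene of the epidermal growth factor receptor, were below 0 (median -0.92), and none passed with limma, while 2 had an unadjusted p under 0.05 (0.216% and 13.1% over all features).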
